A study of Mus musculus with 12 samples.

Results

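Oxidative phosphorylation makes most of the ATP of a resting cell, and its 5 enzyme complexes sit in the inner mitochondrial membrane. The 90 genes described here encode parts of that machinery and were taken from the 9842 genes of the deposited expression table by name. Every gene was kept whose Entrez identifier maps to a mouse symbol that starts with Nduf followed by a, b, c, s or v, with Uqcr, with Atp5 or with Cox and a digit from 4 to 8, or that is Sdha, Sdhb, Sdhc, Sdhd, Cycs or Cyc1. The rule itself uses names and no measured value, but it was chosen with earlier results of these data known. The 90 genes comprise 36 of complex I, 4 of complex II, 9 of complex III, cytochrome c (Cycs), 14 of complex IV and 17 of complex V. The same names also bring in 8 assembly factors of complex I (Ndufaf genes), which help to build the complex and are absent from the finished enzyme, and 1 pseudogene, Ndufs5-ps, so that 81 of the 90 encode subunits. Ndufa4 was counted with complex IV, where its protein is found in spite of its name. In the reference annotation 117 genes match the rule, and the other 27, of which 9 encode proteins and 18 are pseudogenes, were not analysed here.

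The study measured RNA in splenic B cells of female C57BL/6J mice that were wild type or knockout for LSD1, a histone demethylase encoded by Kdm1a. Transitional B cells (TrB), the immature cells that reach the spleen from the bone marrow, were sorted without stimulation: they carried B220 and CD93 and lacked CD11b, F4/80 and Thy1.1. To make ex vivo marginal zone B cells (eMZB), such cells spent 3 days in culture with DL1, which activates Notch, and BAFF, which supports B cell survival. They were then sorted for B220, CD1d and CD21, and against the 3 markers named for TrB. The 12 libraries, each made from 2000 cells, form the groups TrB_WT, TrB_KO, eMZB_WT and eMZB_KO with 3 libraries each. The labels give neither the age of the mice nor the deleting allele and its driver, and do not tell separate animals from repeats, so the p-values reflect spread among libraries that may be technical replicates. Every eMZB library was cultured and stimulated and no TrB library was, so cell identity, culture and stimulation cannot be told apart.

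Complexes I and II take electrons from NADH and succinate and pass them to ubiquinone. Complex III moves them on to cytochrome c, and complex IV hands them to oxygen. Complexes I, III and IV pump protons across the membrane, and complex V, the ATP synthase, uses the return flow to make ATP. Nuclear genes encode most subunits and mitochondrial DNA encodes the rest. The table lists 0 of the mitochondrial ones, so all values below concern nuclear genes.

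Values are FPKM (fragments scaled to transcript length and to the library's reads) divided by a median-of-ratios factor for each library, called scaled FPKM below. A difference is that of the group means of log2(scaled FPKM + 1), which understates the change of low genes, and it carries the standard error (SE) of a limma fit. A gene is called higher or lower at an adjusted p under 0.05 (limma, Benjamini-Hochberg over all 9842 genes). Read totals behind the FPKM ranged from 7.24 M to 19.35 M reads, and a library held a median of 137 to 529.5 reads per respiratory gene. TrB_KO replicate 3 stood apart with 61.6% of its reads in listed genes, against 16.7% to 41.7% in the other 11 libraries. Kdm1a itself had 8.54, 7.93 and 3.47 scaled FPKM in TrB_WT and 3.35, 2.56 and 2.99 in TrB_KO. The eMZB_WT libraries had 7.53, 8.63 and 4.68 and the eMZB_KO libraries 2.65, 2.53 and 2.66. The library labelled TrB_WT replicate 3 thus lay near the knockout level, while eMZB_WT replicate 3 lay between the knockout libraries and the other wild-type ones. Both are low for wild type and were kept under their labels. Of the marker genes examined, all 6 for B cells are listed, those for transitional cells (Cd93 and Cd24a) summed to 188.1 to 238 scaled FPKM in TrB_WT and 63.2 to 76.2 in eMZB_WT, and the 5 for marginal zone cells to 42.99 to 47.6 and 149.5 to 163.4. The table lists 4 of 7 macrophage and monocyte markers, and Csf1r, Lyz2 and Cd14 were not analysed here. The sum of the 4, mostly from Ly6c2, was 12.4 to 14.2 in TrB_WT and 13 to 23 in eMZB_WT. In the matching knockout groups it was 51.1 to 64.6 and 50.6 to 58.4. Mean Ly6c2 was 7.80 in TrB_WT and 51.7 in TrB_KO, and 15.8 and 49.1 in eMZB_WT and eMZB_KO. From TrB_WT to TrB_KO, mean Adgre1 (2.27 to 1.31) and Cd68 (2.62 to 1.84) went down and Itgam (0.890 to 1.49) up. From eMZB_WT to eMZB_KO, Adgre1 (0.661 to 0.787), Cd68 (2.03 to 2.75) and Itgam (0.279 to 1.14) went up. Of the T cell, platelet, neutrophil and stromal markers the table lists 0. Of 6 erythroid ones it lists 1, Hbb-bs, which was called lower in eMZB_WT than in TrB_WT (-1.01). All 4 plasma cell markers (Jchain, Prdm1, Xbp1 and Sdc1) are listed. Their sum was 20.01 to 42.5 in TrB_WT libraries and 37.4 to 44.6 in those of eMZB_WT, and ranged from 38.9 to 87.0 and from 22.8 to 31.0 in the matching knockout groups. Between eMZB and TrB, Prdm1 (0.66) and Xbp1 (0.60) were called higher in wild-type cells, and Jchain (-3.27) and Sdc1 (-0.72) lower in LSD1-deficient cells. Prdm1 had means of 0.627 scaled FPKM in TrB_WT, 0.738 in TrB_KO and 1.57 in eMZB_WT. It is listed mainly through the eMZB libraries, so its call is a description. The part of other cells in the differences below was not tested.

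RNA of nearly all the respiratory genes was found in every library, and the 1 gene with a library at 0 reads was Cox7b2, in TrB_KO replicate 3. In the mean over 12 libraries, 83 of the 90 had at least 5 scaled FPKM, and 0 were among the 50 most abundant genes of the table. Complex V held the most abundant member, Atp5b, the catalytic beta subunit, at 129 scaled FPKM, and its lowest, Atp5pb of the peripheral stalk, had 16.9. In complex IV the level ran from 1.49 for Cox7b2 to 71.9 for Cox4i1, a subunit that is built in early, and in complex I from 5.42 for Ndufa11 to 66.4 for Ndufa3. Complex II ran from 11.5 for the membrane anchor Sdhc to 43.8 for the flavoprotein Sdha, and complex III from 19.6 for Uqcrc2 to 43.7 for Uqcrb. Cycs had 6.59 scaled FPKM. The complex I assembly factors were lower as a group, from 1.06 for Ndufaf5 to 12.1 for Ndufaf8. These levels are per transcript length, and within complexes I, II, IV and V they differed several-fold between genes. Ndufs5-ps had 8.44 and its parent gene Ndufs5 17.2; how reads that fit both copies were assigned is not given in the sources used here, so both values are uncertain.

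Promoter sequence is a property the choice of genes did not use, and it is shown here because motifs of regulators known for respiratory genes recur in it. The window was 250 bases before to 50 bases after the transcription start (RefSeq, GRCm38.p6), with an entry for 74 of the 90 genes and 79 promoters in all. Both strands were searched for exact letters. The letters GCGCATGCG, a core of the site of NRF1, a regulator of nuclear genes for mitochondria, were in 11 of the 79 promoters (13.9%), against 4.06% of the promoters of all listed genes and 1.75% of all 32851 promoters. AAGATGGCG, for YY1, was in 8 (10.1%), against 3.55% and 1.4%. CCGGAAGT, for ETS factors such as GABP, was in 5 (6.33%, against 9.39% and 3.89%), and the E-box CACGTG, which MYC proteins bind, in 7 (8.86%, against 10.4% and 7.15%). The 79 promoters had a median of 20 CG pairs, close to the 21 of all listed genes, while the median of all promoters was 7. A match of letters is a description of the sequence and shows no binding. Below are the 250 bases before a transcription start, 5′ to 3′ on the gene's strand. They are from 3 genes with the NRF1 letters and from Atp5g1 with an E-box. The start used for Atp5g1 lies inside the annotated span of the gene (chr11:96072793-96075694), and its E-box also lies inside that span. Capitals mark the match, and in the first 3 they are 10 bases because the 9 letters occur on both strands at an offset of 1.
Ndufaf4 (chr4:24897833-24898082, plus strand): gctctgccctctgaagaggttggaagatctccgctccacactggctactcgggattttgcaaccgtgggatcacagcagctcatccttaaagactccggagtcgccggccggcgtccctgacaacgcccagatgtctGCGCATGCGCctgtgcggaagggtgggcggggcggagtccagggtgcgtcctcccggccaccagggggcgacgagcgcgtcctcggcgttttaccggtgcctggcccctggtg
Atp5g2 (chr15:102671048-102671297, minus strand): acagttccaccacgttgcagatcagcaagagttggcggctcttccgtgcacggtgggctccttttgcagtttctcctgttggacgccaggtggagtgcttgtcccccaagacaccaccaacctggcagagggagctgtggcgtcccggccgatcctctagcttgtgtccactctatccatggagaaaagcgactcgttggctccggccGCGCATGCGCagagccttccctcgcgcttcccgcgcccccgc
Cox6a1 (chr5:115348959-115349208, minus strand): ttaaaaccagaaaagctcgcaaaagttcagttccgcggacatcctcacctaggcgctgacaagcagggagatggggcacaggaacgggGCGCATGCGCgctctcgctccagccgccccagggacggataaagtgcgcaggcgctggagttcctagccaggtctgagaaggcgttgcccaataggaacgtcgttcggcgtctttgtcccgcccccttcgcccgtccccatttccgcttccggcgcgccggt
Atp5g1 (chr11:96075632-96075881, minus strand): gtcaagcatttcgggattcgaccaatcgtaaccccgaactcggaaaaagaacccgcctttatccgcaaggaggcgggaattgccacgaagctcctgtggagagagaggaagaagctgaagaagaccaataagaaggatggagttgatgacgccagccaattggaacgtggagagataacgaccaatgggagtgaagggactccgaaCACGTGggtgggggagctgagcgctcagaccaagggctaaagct

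The first comparison asks how wild-type eMZB cells differ from the transitional cells. Of the 90 genes, 15 were called higher in eMZB_WT and 0 lower, and 75 were not called. The table lists genes with at least 1 FPKM in at least 3 libraries. Of the 90 genes, 89 reached 1 FPKM in at least 1 library of each cell type. Cox6a2 reached it only in eMZB, so that Cox6a2, 1 of the 15, had to differ. Over all genes, 14.6% were called higher and 12.7% lower, so the share of respiratory genes called higher, 16.7%, was near the background, while 0 lower calls stood against 12.7%. The median difference of the 90 genes was 0.19, against -0.0016 for all genes, and 70 of 90 differences were positive, against 49.8% of all genes. By complex, 5 of 36 genes of complex I were called, 1 of 8 assembly factors, 0 of 4 in complex II, 1 of 9 in complex III, Cycs, 2 of 14 in complex IV and 5 of 17 in complex V. The median differences were 0.12 in complex I, 0.19 in the assembly factors, -0.02 in complex II, 0.34 in complex III, 0.19 in complex IV and 0.23 in complex V. In bulk samples such as these, a higher level per cell and more cells of a kind that holds much of the RNA cannot be told apart.

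**Figure D1:**
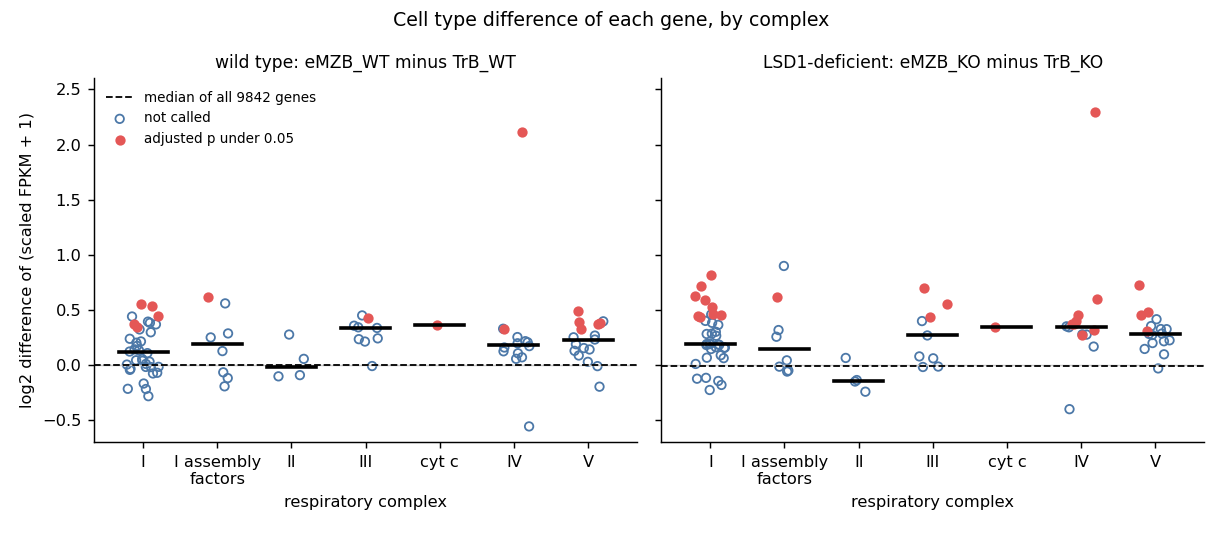
Each point is 1 gene, placed by respiratory complex (the pseudogene is left out), and its height is the eMZB minus TrB difference in log2(scaled FPKM + 1), in wild-type libraries at left and LSD1-deficient libraries at right. Black bars are the medians of each complex, the dashed line is the median of all 9842 genes, and filled points are genes called at an adjusted p under 0.05: 15 at left and 26 at right, all above 0, with Cox6a2 at 2.12 and 2.29.

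Cox6a2 (Entrez 12862, chr7:128205435-128206366) is the isoform of complex IV subunit 6a known from heart and skeletal muscle. Because it is listed through the eMZB libraries alone, its difference is a description without a test. Its scaled FPKM was 0.369, 0.614 and 0.210 in TrB_WT and 6.46, 4.29 and 4.52 in eMZB_WT. The groups were far apart, and the lowest eMZB_WT library lay above the highest TrB_WT library. The difference was 2.12 (SE 0.18). The TrB_WT values rest on 2, 4 and 1 reads and those of eMZB_WT on 68, 21 and 76. With reads pooled over the 3 libraries and divided by library total and scale factor, the ratio was 12.2 (exact 95% interval 5.79 to 30.8, counting error only). Cox6a1, the form found in most tissues, had 65.7, 71.95 and 66.4 in TrB_WT and 73.5, 68.99 and 71.8 in eMZB_WT, with overlapping groups. Cox6a2 therefore amounted to 0.578% ± 0.269 (SD, n = 3) of the level of Cox6a1 in TrB_WT and 7.10% ± 1.46 in eMZB_WT. Its exons overlap those of Itgad on the opposite strand, and the cDNA kit does not mark strand, so reads of both genes cannot be told apart; Itgad was not analysed here.

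The ATP synthase (complex V) had 5 of its 17 genes called higher. Among them were all 3 genes for subunit c, which builds the rotating ring: Atp5g1, Atp5g2 and Atp5g3 encode the same mature protein behind different import sequences. Atp5g1 (chr11:96072793-96075694) had 22.4, 19.8 and 19.5 scaled FPKM in TrB_WT and 28.98, 29.6 and 29.4 in eMZB_WT, a difference of 0.49 (SE 0.12, adjusted p = 0.00804). Atp5g2 went from 22.8 ± 1.73 to 30.2 ± 1.58 (0.39, SE 0.08, adjusted p = 0.00412). Atp5g3, the most abundant of the 3, went from 44.4 ± 3.57 to 57.97 ± 3.75 (0.38, SE 0.08, adjusted p = 0.00508). In each of the 3, every eMZB_WT library lay above every TrB_WT library. Atp5b (chr10:128083307-128090388), where ATP is formed, had 110.0, 110.1 and 102.6 in TrB_WT and 140.2, 137.9 and 139.9 in eMZB_WT. These groups did not overlap either, and the difference was 0.37 (SE 0.06, adjusted p = 0.00104). The fifth call, Atp5j, a stalk subunit whose exons overlap those of Gabpa on the other strand, was 0.32. Atp5a1, the alpha subunit that alternates with beta in the catalytic head, had 73.0 ± 0.693 and 72.6 ± 2.99, overlapping groups and a difference of -0.01 (SE 0.07). Atp5pb, the lowest gene of the complex, had 15.2 ± 1.20 and 18.0 ± 0.971 (0.23, SE 0.09, adjusted p = 0.0681).

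**Figure D2:**
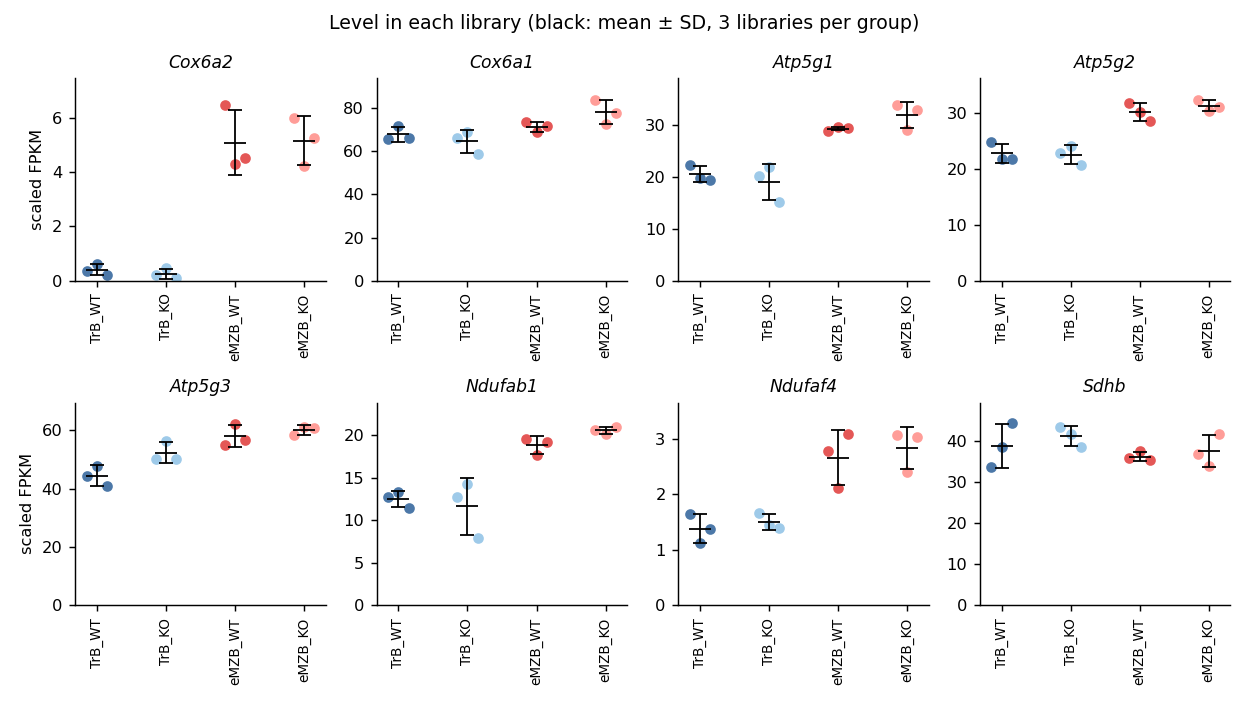
Scaled FPKM (y axis from 0, own scale in each panel) in each of the 12 libraries for 8 genes, with black bars for mean ± SD of 3 libraries per group. Cox6a2 lies under 1 in all 6 TrB libraries and above 4 in all 6 eMZB libraries, the 3 subunit c genes, Ndufab1 and Ndufaf4 are higher in eMZB without overlap between TrB_WT and eMZB_WT, and Cox6a1 and Sdhb overlap between TrB_WT and eMZB_WT.

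Complex I, the largest complex, had 5 of 36 genes called higher. Ndufab1, the mitochondrial acyl carrier protein, which also serves lipoic acid and iron-sulfur cluster synthesis, had 12.8, 13.4 and 11.5 scaled FPKM in TrB_WT and 19.6, 17.6 and 19.3 in eMZB_WT. The difference was 0.55 (SE 0.16, adjusted p = 0.0208), with no overlap, and the call was lost under 5 of 21 alternatives. Ndufs3, a core subunit, had 10.7, 17.0 and 15.2 against 19.2, 22.4 and 21.3 (0.54, SE 0.14, adjusted p = 0.0144). The lowest of these 6 values, TrB_WT replicate 1, widened the spread, yet all eMZB_WT libraries lay above all TrB_WT libraries. Ndufb2, an accessory subunit of the membrane arm, had 16.9 ± 0.784 and 23.5 ± 3.24 (0.44, SE 0.11, adjusted p = 0.00823). The other calls were Ndufv2 at 0.37 and Ndufb9 at 0.35, the latter with overlapping groups. The exons of Ndufab1, Ndufs3, Ndufb2 and Ndufb9 overlap those of other genes. Of the core subunits that carry the flavin or iron-sulfur clusters, Ndufv2 was called, and Ndufv1, Ndufs1, Ndufs7 and Ndufs8 were not. Ndufv1, which binds NADH, had 17.6 ± 3.05 and 16.6 ± 0.786 (-0.07, SE 0.12), and Ndufs1 had 10.8 ± 1.18 and 9.15 ± 0.891 (-0.22, SE 0.10, adjusted p = 0.126). Ndufs8, another core iron-sulfur subunit, had 38.7, 42.8 and 44.3 against 33.6, 36.2 and 33.1, without overlap, and narrowly missed the threshold (-0.28, SE 0.10, adjusted p = 0.0524). It was called lower under 6 alternatives, among them upper quartile scaling (-0.34, adjusted p = 0.0375).

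The assembly factors of complex I had 1 call. Ndufaf4 (chr4:24898083-24905001), which works early in assembly, had 1.64, 1.11 and 1.38 scaled FPKM in TrB_WT and 2.79, 2.11 and 3.09 in eMZB_WT, without overlap. The difference was 0.62 (SE 0.14, adjusted p = 0.00589), and the pooled read ratio was 2.09 (exact 95% interval 1.72 to 2.56). Ndufaf5, the lowest of the 8, had 0.811 ± 0.220 and 1.20 ± 0.0613 (0.29, adjusted p = 0.236), and Ndufaf8, the highest, 13.6 ± 1.87 and 12.4 ± 0.706 (-0.12, adjusted p = 0.436).

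Complex II had 0 of 4 genes called. It is the only complex shared with the citric acid cycle, and its genes did not move together. Sdha had 37.9, 36.7 and 44.6 scaled FPKM in TrB_WT and 45.4, 48.3 and 51.1 in eMZB_WT, without overlap, and did not pass (0.28, SE 0.10, adjusted p = 0.0689). Sdhb, the iron-sulfur subunit, had 33.5, 38.6 and 44.2 against 35.7, 37.4 and 35.2 (-0.09, SE 0.10). All 3 eMZB_WT values of Sdhb lay inside the range of TrB_WT. The anchors Sdhc and Sdhd differed by 0.06 (SE 0.14) and -0.10 (SE 0.09).

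In complex III, 8 of 9 differences were positive and 1 gene was called. Uqcrq, a small subunit, had 27.3, 29.4 and 29.7 scaled FPKM in TrB_WT and 39.2, 38.3 and 39.8 in eMZB_WT. The groups were well apart, at 0.43 (SE 0.14, adjusted p = 0.0367), although the call was lost under 10 of 21 alternatives. Uqcrc1, a core subunit, had 43.6 ± 3.60 and 43.3 ± 2.64 (-0.01, SE 0.08). Uqcrfs1, the Rieske iron-sulfur protein, had 20.02 ± 3.86 and 23.6 ± 0.384 (0.24, SE 0.12, adjusted p = 0.169), and Cyc1, cytochrome c1, 17.4 ± 4.04 and 21.97 ± 1.90 (0.34, SE 0.13, adjusted p = 0.0716). Uqcrc2 and Uqcrb, the lowest and highest members, differed by 0.24 (adjusted p = 0.159) and 0.36 (adjusted p = 0.0539). Cycs, the mobile carrier to complex IV that also triggers apoptosis when it leaves mitochondria, had 4.73, 6.15 and 5.67 against 6.69, 7.71 and 7.66. It was called higher at 0.36 (SE 0.11, adjusted p = 0.0251), without overlap, and lost the call under 8 of 21 alternatives.

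Beside Cox6a2, complex IV had Cox5a called: 34.8, 35.7 and 28.9 scaled FPKM in TrB_WT and 44.8, 38.5 and 41.4 in eMZB_WT (0.32, SE 0.10, adjusted p = 0.0353, no overlap). Cox5a is an early subunit at the matrix side, and its call was lost under 9 of 21 alternatives. Cox4i1, its partner in assembly, had 66.4 ± 3.92 and 76.3 ± 5.16 (0.20, SE 0.11, adjusted p = 0.184). Further listed genes of isoform families gave 0.06 (SE 0.12) for Cox6b1, 0.16 (SE 0.12) for Cox7a2 and 0.22 (SE 0.10) for Cox7a2l. Cox7b gave 0.33 (SE 0.14), Cox8a 0.25 (SE 0.10) and Ndufa4 0.17 (SE 0.13), and none of these genes was called. Cox7b2, a form of Cox7b known from testis, was the one with a negative difference. It had 2.01, 2.05 and 2.30 in TrB_WT and 1.38, 0.992 and 1.01 in eMZB_WT, which did not overlap, at -0.56 (SE 0.42, adjusted p = 0.357). Its values rest on 4 to 14 reads a library in these groups, and TrB_KO replicate 3, with 0 reads, enters the shared spread. Fitted on the 2 wild-type groups alone, Cox7b2 was called lower (adjusted p = 0.0147).

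The count of 15 depended on scale and libraries. On the FPKM as deposited 21 genes were called higher (18.1% of all genes), with voom on recovered reads 10 (13.1%), and with upper quartile scaling 10 higher and 2 lower (12.6% and 15.5% of all genes). Without TrB_KO replicate 3, which enters this contrast through the shared spread, 26 were called higher and 1 lower (17% and 17.6% of all genes). Without both wild-type libraries low in Kdm1a, 9 were called higher (10.9% of all genes). Without TrB_WT replicate 1 the median difference of the 90 genes over that of all genes fell from 0.20 to 0.09. Atp5b, Atp5g2 and Atp5g3 were called higher under all 21 alternatives run for them.

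The second comparison repeats the first in LSD1-deficient cells. Here 26 of the 90 genes were called higher in eMZB_KO than in TrB_KO and 0 lower, against 14.2% higher and 13.2% lower over all genes. That is 28.9% of the respiratory genes. The median difference was 0.28, against -0.01 for all genes, and 75 of 90 differences were positive. Complex IV had 8 of 14 called, complex I 9 of 36, complex V 4 of 17, complex III 3 of 9, the assembly factors 1 of 8, complex II 0 of 4, and Cycs was called. Complex II again had the lowest median, -0.14, and complex IV the highest at 0.35 beside the single Cycs at 0.35.

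Cox6a2, 1 of these 26, is again only described, with 0.200, 0.469 and 0.0993 scaled FPKM in TrB_KO and 6.01, 4.24 and 5.24 in eMZB_KO. The groups were far apart (2.29, SE 0.18), from 1, 4 and 2 reads against 86, 48 and 73. The pooled read ratio was 25.2 (exact 95% interval 12 to 63.4, counting error only). Within TrB_KO this ratio weights replicate 3 most, through its scale factor of 2.14. The group means were 0.256 scaled FPKM in TrB_KO and 5.16 in eMZB_KO. Cox6a2 amounted to 0.383% ± 0.265 of Cox6a1 in TrB_KO and 6.57% ± 0.690 in eMZB_KO. Cox6a1 itself was called higher in this contrast, from 66.3, 69.0 and 58.8 to 84.0, 72.9 and 77.6 (0.27, SE 0.08, adjusted p = 0.0285). Of the other complex IV genes, Cox7b rose by 0.60 (SE 0.14, adjusted p = 0.00746), Cox6c by 0.46 (SE 0.10, adjusted p = 0.00369), Cox5a by 0.40 (SE 0.10, adjusted p = 0.0122), Cox4i1 by 0.38 (SE 0.11, adjusted p = 0.0183), Cox5b by 0.37 (adjusted p = 0.0303) and Cox8a by 0.32 (adjusted p = 0.0407). The call of Cox8a was lost under 10 of 21 alternatives. Cox4i1 and Cox5a join the enzyme early in its assembly, and Cox6c, Cox7b and Cox8a are small subunits of its membrane part.

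Among the other complexes, Ndufab1 had 12.7, 14.3 and 7.86 scaled FPKM in TrB_KO and 20.6, 20.2 and 21.0 in eMZB_KO (0.81, SE 0.16, adjusted p = 0.00231). The value of TrB_KO replicate 3 was the low one of its group. Atp5g1 had 20.2, 21.9 and 15.2 against 33.97, 29.1 and 32.9 (0.73, SE 0.12, adjusted p = 0.000694). Uqcrq had 33.04, 29.6 and 20.1 against 44.97, 41.5 and 47.5 (0.70, SE 0.14, adjusted p = 0.00264). In both genes TrB_KO replicate 3 was again the lowest library and the groups did not overlap. Further calls included Ndufb2 at 0.63, Ndufaf4 at 0.62, Atp5g2 at 0.46, Uqcrb at 0.43 and Cycs at 0.35. Atp5g3 and Atp5b, called in wild-type cells, stood at 0.20 (adjusted p = 0.0959) and 0.15 (adjusted p = 0.111) here. Core genes without a call included Ndufs1 (-0.23, adjusted p = 0.117), Ndufv1 (-0.14), Sdha (0.06), Sdhb (-0.14), Uqcrc1 (-0.01), Uqcrfs1 (-0.02), Cyc1 (0.08) and Atp5a1 (-0.03).

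This count varied more with the processing than the wild-type one. On the FPKM as deposited the 1 gene called higher was Cox6a2, which had to differ (3.93% of all genes were called higher), and with voom on recovered reads 49 were (21.8% of all genes). Without TrB_KO replicate 3, 18 were called higher and 2 lower, Cox7b2 at -1.03 and Ndufs8 at -0.27 (13.8% and 15.4% of all genes), and the median difference over that of all genes went from 0.29 to 0.19. Without eMZB_KO replicate 1 there were 15 higher (10.4% of all genes) and without eMZB_KO replicate 3 there were 17 (10.1%). On the deposited scale the median of all genes itself shifted to 0.67 in the wild-type contrast and 0.23 in the knockout one; relative to it, the respiratory genes had medians of 0.34 and 0.35.

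The calls of both contrasts shared 11 genes, 4 were called in wild-type cells alone and 15 in LSD1-deficient cells alone, 30 in all. The matching shares over all genes were not computed, so these counts only describe the lists. A gene called in one contrast and not in the other is not thereby shown to differ, and the difference between the contrasts (the interaction) was called in 0 of 90 genes, against 0.0102% of all genes. At an unadjusted p under 0.05 the interaction held 5 of 90 (6.85% of all genes), and voom called 0. The smallest p values belonged to Ndufa9, a subunit near the ubiquinone site (0.36, SE 0.12, adjusted p = 0.684), Atp5b (-0.22, SE 0.09, adjusted p = 0.686) and Ndufa12 (0.48, SE 0.19, adjusted p = 0.686). The median interaction was 0.10 over the 90 genes and -0.01 over all genes. Without TrB_KO replicate 3, the median over that of all genes went from 0.10 to 0.01.

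The differences also varied with transcript length. Most of the respiratory transcripts are short: 57 of the 90 are under 1000 bases, and the median is 731.5, against 3043.5 for all genes. Of the genes called higher, 11 of 15 in wild-type cells and 22 of 26 in LSD1-deficient cells were under 1000 bases. Of all 698 listed protein-coding genes under 1000 bases, 20.9% were called higher and 12.2% lower in wild-type cells, and 25.1% higher and 6.88% lower in LSD1-deficient cells, beside 16.7% and 28.9% of the 90 called higher. In the wild-type contrast the median was 0.21 for the 57 short genes and 0.11 for the 33 longer ones, and 0.02 for the 642 other protein-coding genes under 1000 bases. In the knockout contrast the medians were 0.35, 0.08 and 0.09. The interaction had a median of 0.16 in the short respiratory genes and also 0.16 in the other short genes. TrB_KO replicate 3 was the library where short genes deviated most from the mean of the 12, by -0.39 for the short respiratory genes and -0.40 for the other short genes. The latter lay between -0.05 and 0.09 in the other 11 libraries. The part of transcript length in the differences was not tested.

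**Figure D3:**
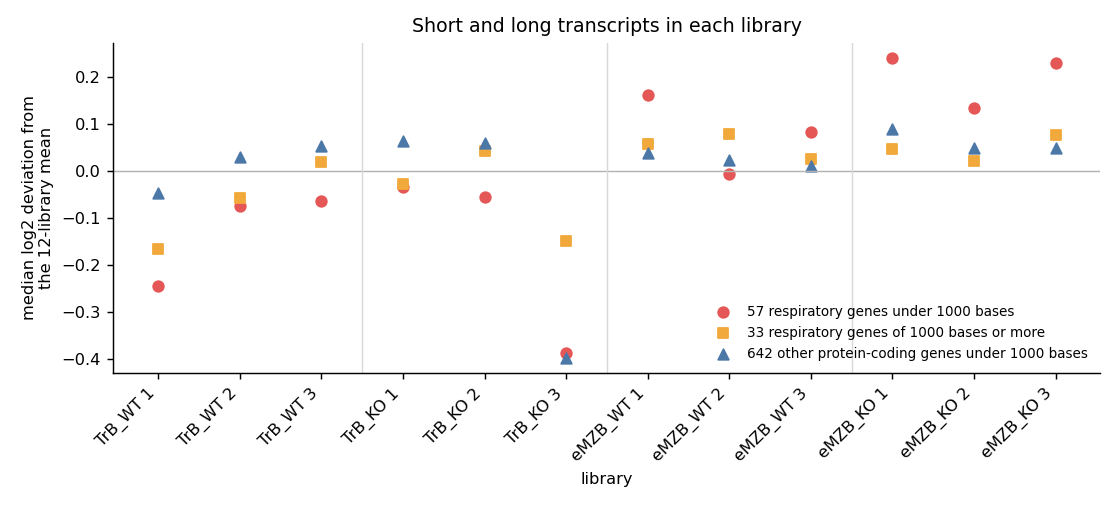
For each library (x axis) the points give the median deviation of log2(scaled FPKM + 1) from the 12-library mean (y axis) over 57 short and 33 longer respiratory genes and over 642 other short protein-coding genes. In TrB_KO replicate 3 both sets of short genes lie near -0.4, while in the eMZB_KO libraries the short respiratory genes lie at 0.13 to 0.24 and the other short genes at 0.05 to 0.09.

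The share of a library's FPKM that the 90 genes hold does not depend on the scale factor. It was 2.29%, 2.45% and 2.49% in the TrB_WT libraries and 2.53%, 2.52% and 2.17% in TrB_KO. The eMZB_WT libraries had 2.73%, 2.55% and 2.72%, and those of eMZB_KO 2.92%, 2.78% and 2.87%. Each eMZB library lay above each TrB library, and each eMZB_KO library above each eMZB_WT library. Complex III went from 0.250% ± 0.00913 in TrB_WT to 0.297% ± 0.00227 in eMZB_WT, and complex V from 0.699% ± 0.0169 to 0.796% ± 0.0344. Complex IV went from 0.537% ± 0.0191 to 0.592% ± 0.0299 and reached 0.655% ± 0.0231 in eMZB_KO. Complex I, with 0.764% ± 0.0532 and 0.812% ± 0.0331, overlapped between TrB_WT and eMZB_WT. Complex II stayed between 0.106% and 0.132% in all 12 libraries, with group means from 0.114% (TrB_WT and eMZB_KO) to 0.123% (TrB_KO).

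**Figure D4:**
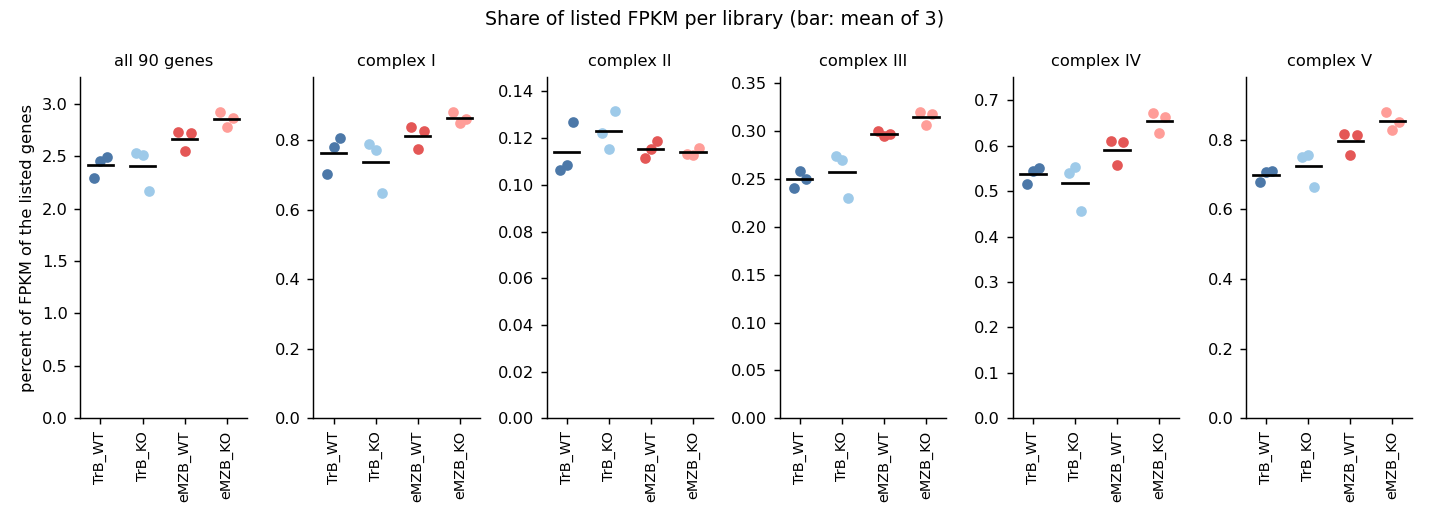
Percent of the summed FPKM of all listed genes (y axis from 0) held by the 90 genes and by complexes I to V, in each of 3 libraries per group, with a bar at the mean. For all 90 genes the TrB libraries lie at 2.17% to 2.53% and the eMZB libraries at 2.55% to 2.92%, while complex II shows no such step.

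The third comparison asks what LSD1 loss did to the same genes. By limma 0 of 90 were called in TrB cells and 0 in eMZB cells, where 0.498% and 0.406% of all genes were. At an unadjusted p under 0.05 there were 3 of 90 in TrB (9.91% of all genes) and 3 of 90 in eMZB (5.39% of all genes), and voom on recovered reads called 0 in each. The median difference was -0.01 in TrB, with 42 of 90 positive, and 0.06 in eMZB, with 68 of 90 positive. In eMZB the medians were 0.07 in complex I, 0.13 in complex IV and 0.06 in complex V, and -0.0009 in complex II. Relative to all genes the TrB median turned from -0.02 to 0.08 when TrB_KO replicate 3 was left out, and the eMZB one lay between 0.04 and 0.09 with any 1 library left out.

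The genes with the smallest p in TrB were the ATP synthase genes Atp5b and Atp5g3 and the complex I gene Ndufa9. Atp5b had 110.0, 110.1 and 102.6 scaled FPKM in TrB_WT and 123.9, 134.2 and 126.3 in TrB_KO. The groups did not overlap, yet the difference of 0.25 (SE 0.06) did not pass (adjusted p = 0.166). Atp5g3 had 44.5, 47.9 and 40.8 against 50.3, 56.5 and 50.3 (0.23, SE 0.08, adjusted p = 0.356), also without overlap. Ndufa9 had 19.2, 21.6 and 18.9 against 16.6, 16.5 and 18.96, which overlap (-0.19, SE 0.09, adjusted p = 0.491), and on the FPKM as deposited its difference was positive at 0.42, where the median of all genes was 0.52.

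In eMZB the smallest p belonged to Atp5k, the e subunit that helps ATP synthase form dimers. It had 22.3, 17.1 and 21.2 scaled FPKM in eMZB_WT and 27.9, 26.9 and 31.8 in eMZB_KO, without overlap, at 0.50 (SE 0.14, adjusted p = 0.311). Cox6c had 59.5, 53.6 and 61.2 against 74.6, 67.3 and 67.2 (0.26, SE 0.10, adjusted p = 0.723). Ndufa12 had 20.4, 14.7 and 19.0 against 22.8, 23.1 and 21.2 (0.31, SE 0.14, adjusted p = 0.89). In all 3 genes each knockout library lay above each wild-type one, and none passed the test. Cox6a2, by contrast with its difference between cell types, had a log2 difference of 0.02 (SE 0.18) between eMZB_KO and eMZB_WT.

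**Figure D5:**
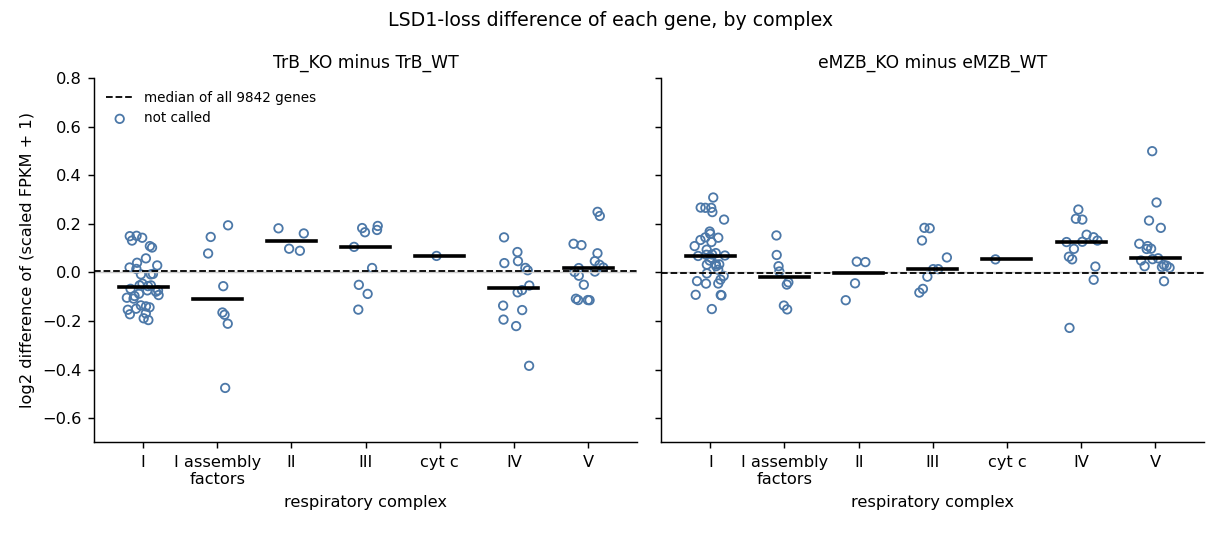
Each point is 1 gene, placed by respiratory complex (the pseudogene is left out), and its height is the knockout minus wild-type difference in log2(scaled FPKM + 1), in TrB at left and eMZB at right. Open points are genes that were not called, which is all of them; bars are medians of each complex, at 0.13 for complex IV and -0.0009 for complex II in eMZB, and the dashed line is the median of all 9842 genes.

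Other mitochondrial genes were counted the same way in the wild-type contrast, where 14.6% of all genes were called higher and 12.7% lower. Of 37 listed assembly factors outside the Ndufaf group, 4 were called higher (10.8%) and 2 lower (5.41%), with a median of 0.0016. Tmem70, needed for ATP synthase assembly, went from 3.76 ± 0.522 to 6.66 ± 0.595 (0.69, adjusted p = 0.00984), and Cox17, a copper chaperone for complex IV, from 22.3 ± 5.09 to 32.7 ± 4.76 (0.55, adjusted p = 0.0248), whereas Ecsit, a complex I assembly protein that also acts in immune signalling, fell from 8.64 ± 0.804 to 5.94 ± 0.623 (-0.47, adjusted p = 0.0107). Of 20 genes of the citric acid cycle and pyruvate entry, 2 were called higher (10%) and 3 lower (15%), with a median of 0.03. Mdh2, malate dehydrogenase, went from 31.1 ± 3.5 to 41.6 ± 1.996, while Idh3g, a subunit of isocitrate dehydrogenase, went from 56.0 ± 5.96 to 45.4 ± 0.277 and Pdhx, of the pyruvate dehydrogenase complex, from 4.002 ± 0.581 to 2.84 ± 0.173.

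Of 23 import and carrier genes, 4 were called higher (17.4%) and 0 lower (median 0.14). They included Timm23, the inner membrane import channel (15.3 ± 1.51 to 24.3 ± 2.81), Vdac3, a pore of the outer membrane (22.2 ± 0.742 to 29.4 ± 0.416), and Slc25a3, the carrier that brings in phosphate for ATP synthesis (15.6 ± 1.22 to 20.3 ± 0.658). Of 15 genes that maintain and transcribe mitochondrial DNA, 2 were called higher (13.3%) and 0 lower (median 0.08). These were Tfam, which packages mitochondrial DNA (5.52 ± 0.285 to 7.76 ± 0.547), and Slirp, which stabilises mitochondrial messenger RNA (5.25 ± 1.07 to 8.86 ± 0.900). Ssbp1, which binds single-stranded mitochondrial DNA, did not pass (0.26, adjusted p = 0.0573).

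Of 13 regulators of respiratory genes, 2 were called higher (15.4%) and 4 lower (30.8%). Myc, a transcription factor that promotes growth and binds E-boxes, had 5.38, 6.31 and 5.47 scaled FPKM in TrB_WT and 15.7, 16.1 and 17.8 in eMZB_WT (1.38, SE 0.10, adjusted p = 1.06e-06). It was also the 1 gene of these 5 lists called with LSD1 loss in TrB, with 8.97, 8.09 and 9.09 in TrB_KO (0.53, SE 0.10, adjusted p = 0.039). Ppargc1b, a coactivator of mitochondrial biogenesis, went from 0.560 ± 0.213 to 1.49 ± 0.0839 (0.68). It is listed through the eMZB libraries alone, as Cox6a2 is, so its call is a description. Gabpb2, a partner of the ETS factor GABP, fell from 6.47 ± 1.1 to 3.68 ± 0.446 (-0.67, adjusted p = 0.00847). Of the 11 respiratory genes with the NRF1 letters in their promoters, 3 were called higher in wild-type and 6 in LSD1-deficient cells, of the 6 with an E-box, 2 and 2, of the 8 with the YY1 letters, 1 and 1, and of the 5 with the ETS letters, 1 and 2. Over all 90 genes these counts were 15 and 26 (16.7% and 28.9%). In the knockout contrast, where 14.2% of all genes were called higher and 13.2% lower, 2 assembly factors were called higher and 1 lower, 2 and 4 of the citric acid cycle genes, 5 and 0 of the import genes, 1 and 0 of the genes for mitochondrial DNA and 3, Ppargc1b among them, and 4 of the regulators. In eMZB cells 0 genes of these lists were called with LSD1 loss. Myc narrowly missed the threshold there (0.49, SE 0.10, adjusted p = 0.0617), without overlap between eMZB_WT and eMZB_KO. Its interaction was -0.04 (adjusted p = 0.975), so its response was not shown to differ between the cell types.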

How the data were processed

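Each library came from 2000 cells: per the labels' protocols, a SMART-Seq v4 kit made the cDNA and Nextera XT the library. The authors deposited 1 table of FPKM for 9842 genes in 12 libraries. Per the submitters' processing notes, STAR and mm10 were used. The counting program, annotation and handling of reads that fit several places were not given in the sources used here. Every listed gene had at least 1 FPKM in at least 3 libraries. The FPKM of all 9842 genes are whole reads (within 0.02 reads) for a read total and gene length found by a script, and for 177 of 197 small RNA genes that length equals the reference length; voom was run on these reads as an alternative.

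FPKM were divided by median-of-ratios factors, 1 was added and log2 taken. limma 3.58.1 (R 4.3.3; lmFit, eBayes with trend) was fitted on all genes and the 4 group means, with 8 residual degrees of freedom. It was checked on simulated data. Symbols and coordinates for 9833 of 9842 Entrez identifiers came from RefSeq GRCm38.p6, exon overlaps from GENCODE: 32 of the 89 respiratory genes found there share exon bases with another gene. Beside Cox6a2 and Atp5j they include the called genes Ndufs3, Ndufb2, Ndufb9, Ndufab1, Cox5a, Cox4i1 and Cox6c. Reads from the shared bases cannot be told apart there either. Genes were named by a rule: core subunits, the 3 largest calls per complex in the wild-type contrast, the 3 smallest p per LSD1 contrast, the highest and lowest of each complex, listed isoforms, and 3 genes per other list. 1 gene that the rule names is not reported here. Others are named to complete a count or were chosen after their values were seen. The members, lists and alternatives were chosen with earlier results of these data known, so no list was tested and the planned permutation tests of shares are not printed. Alternatives were the deposited scale, upper quartile scaling, pseudocounts of 0.1 and 5, genes with a mean of at least 5 FPKM, the groups of each contrast alone, a replicate block and leaving out each library; voom and leaving out both wild-type libraries low in Kdm1a were added after seeing the data. Same-numbered libraries deviated together (all 3 correlations over 0.1) only between TrB_KO and eMZB_KO, with r of 0.16, 0.11 and 0.29 across genes.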

Additional observations from a re-analysis of the deposited data

How the results depend on the processing

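The values behind 14 main results (counts of respiratory genes called, medians over all genes and shares of FPKM) were recomputed under each alternative. Of these, 236 of 243 recomputed values stayed on their side of the threshold, within 1.5 times the count or within 1 SD. Part of this tally was fixed in advance. A replicate block, or leaving out a library of another group, does not change a contrast's differences or their median. The wild-type count of 15 became 27 without TrB_KO replicate 3 and 9 without both wild-type libraries low in Kdm1a, and lay between 10 and 27 with any 1 library left out. The knockout count of 26 became 1 on the FPKM as deposited and 49 with voom, and lay between 15 and 33 with any 1 library left out. Over all 9842 genes the calls moved as well. With any 1 library left out, 1025 to 1676 were higher and 919 to 1731 lower in the wild-type contrast. In the knockout contrast 990 to 1622 were higher and 953 to 1514 lower. On the FPKM as deposited the wild-type median over that of all genes went from 0.20 to 0.34. The cause of these shifts was not tested. The signs of 3 named differences turned on the FPKM as deposited: Ndufa9 with LSD1 loss in TrB (0.42) and in the interaction (-0.18), and Ndufa12 in the interaction (-0.049), where the median of all genes also shifted. Of 770 recomputed values of named genes, 689 kept direction and call and 78 kept direction but lost the call. With the replicate number as a block, 16 genes were called in the wild-type contrast, 26 in the knockout contrast and 0 in the others. Over all 9842 genes, 1441 were then called higher and 1294 lower in the wild-type contrast, and 1395 and 1279 in the knockout one. Cox8a in the knockout contrast was the 1 named gene that lost its call. The SE of a difference between groups was 0.12 (log2 scale) in the median respiratory gene and 0.06 to 0.42 over the 90. Differences with LSD1 loss of about that size were not detectable with 3 libraries a group, and larger ones also did not pass. By limma, Atp5k in eMZB stood at 0.50 (SE 0.14, adjusted p = 0.311). Atp5b in TrB stood at 0.25 (SE 0.06, adjusted p = 0.166).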
